A study of Mus musculus with 9 samples.

Results

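Transcripts of 10 insulin and insulin-like growth factor (IGF) signalling genes were examined in the lactating mammary gland of mice that express human NAG-1 (hNAG-1). NAG-1, also named GDF15, is a secreted member of the TGF-beta superfamily. The genes, picked with earlier results of these data known, were Igf1, Igf2, Igfbp3, Insr, Igf1r, Irs1, Irs2, Akt1, Akt2 and Foxo1. Every probe listed under a member's name was taken, with no threshold on its values, which gave 18 probes for 9 of the 10 genes, out of 27962 gene names on the array. Irs2 was matched to 0 probes, by name or by accession, and was not analysed here.

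RNA came from mammary gland number 4 of 4 WT and 5 hNAG-1 dams on lactation day 2 (L2) and was measured on 1-color oligonucleotide arrays, with 1 array for each mouse. The labels give all 9 mice the strain background C57BL/7, which may be a slip for another C57BL substrain, and no age in weeks is given for these dams. The hNAG-1 dams carry a transgene meant to be expressed in all tissues. More than 1 transgenic line was made, and the labels do not say which line the 5 dams came from. The glands were whole pieces of tissue, so fewer cells of a type and less RNA per cell cannot be told apart. The paper took glands of its fertility study after several litters, and its microarray section does not give the litter.

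Insulin and the IGFs bind receptor tyrosine kinases at the cell surface. The receptors phosphorylate docking proteins of the Irs family, which recruit PI3-kinase, and this activates the Akt kinases. Akt keeps FoxO transcription factors out of the nucleus and relieves the brakes on mTOR, a kinase that promotes protein synthesis. In the mammary gland, insulin is known as one of the hormones needed for milk synthesis, and IGF-1 made largely by the stroma is known to support growth and survival of the epithelium. IGF-binding proteins hold IGFs outside the cell and limit or prolong their action.

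The array measures a gene with designed sequences of 60 bases, and the sequence decides which transcripts are read. The probes shown here are those that lie in coding sequence for the genes with the widest differences between mice or between probes, and for both Akt kinases, which the array reads apart. Positions refer to mouse build mm7, which the array's designers used. The letters run 5′ to 3′ in the sense of the transcript. The capitals in the Akt1 sequence mark the start codon. The Insr probe lies at chr8:3058920-3058979 (minus strand) and the Igf1 probe at chr10:87471884-87471943 (plus strand). The other 3 are split over introns, so that their 60 bases span 9267 bases of genome for Akt1 at chr12:110187243-110196509 (minus strand), 141 bases for Akt2 at chr7:24556257-24556397 (plus strand) and 1010 bases for Igfbp3 at chr11:7160474-7161483 (minus strand).
Insr A_52_P6490: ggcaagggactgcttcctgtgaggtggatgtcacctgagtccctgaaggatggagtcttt
Igf1 A_52_P536434: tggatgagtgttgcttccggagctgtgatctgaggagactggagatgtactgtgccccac
Akt1 A_52_P418014: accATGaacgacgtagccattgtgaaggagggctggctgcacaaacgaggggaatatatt
Akt2 A_51_P408044: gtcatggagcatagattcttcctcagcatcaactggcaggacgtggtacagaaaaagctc
Igfbp3 A_51_P228472: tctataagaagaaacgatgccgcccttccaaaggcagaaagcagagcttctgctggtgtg

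Each array gave an intensity per feature, a feature being 1 printed spot of a probe. Intensities were scaled so that all arrays share 1 75th percentile, and the scaled intensity has no unit beyond this. On single arrays 59.8% to 76.1% of features were well above background, and the lowest scaled intensity well above background lay between 14.4 and 31.7. Levels of different probes cannot be set against each other. The arrays lay on 3 slides. WT 1 was alone on slide 1, hNAG-1 1 to 4 shared slide 2, and hNAG-1 5 shared slide 3 with WT 2 to 4, so that genotype and slide can be told apart only on slide 3. Markers of other cell types differed between mice. The 7 lymphocyte markers were all lower in hNAG-1, with a summed scaled intensity of 1020 to 35101 in WT, highest in WT 2, and 778 to 5238 in hNAG-1. Under median scaling 6 of the 7 were lower. Among them Cd2 had an unadjusted p under 0.05 in limma (log2 fold change -1.50, SE 0.66). The 9 adipocyte markers were all higher in hNAG-1, with sums of 438090 to 820320 in WT and 605730 to 743320 in hNAG-1, and Adipoq was 9248 in WT 1 against 28667 to 34921 in the other 8 mice. Without scaling 8 of the 9 were higher, and with slide as a block 7. The 7 myoepithelial markers were all higher in hNAG-1 too (median log2 fold change 0.34), with sums of 77961 to 163510 in WT and 141250 to 178230 in hNAG-1, and 1 of them, Myh11, had an unadjusted p under 0.05 in limma. Without scaling 6 of the 7 were higher. All 8 markers of secretory luminal epithelium were well above background on all 9 arrays, and all 8 were higher in hNAG-1 (median 0.09). Their direction depended on the fit, since 2 were higher and 6 lower without scaling (median -0.05), and 5 higher and 3 lower with slide as a block. Of 5 macrophage markers 1 was higher and 4 lower in hNAG-1 (median -0.10), and 4 were higher under median scaling. Their sums were 3543 to 9623 in WT, lowest in WT 1, and 4572 to 16844 in hNAG-1, highest in hNAG-1 4. Unless stated, the part of these markers and of the slides in the results below was not tested.

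The genotypes overlapped for all 18 probes of the insulin and IGF signalling genes. In limma's test, 0 of the 18 probes had an unadjusted p under 0.05, where 5.6% of the 41174 probes on the array did. The lowest of them in limma was that of the brightest Igf1 probe, with an unadjusted p = 0.0683 (exact permutation test, p = 0.111). After Benjamini-Hochberg adjustment over all probes in limma, 0 of the 18 passed, against 0.00243% of all probes, and their adjusted p-values lay between 0.661 and 0.997. The study's own thresholds (an unadjusted p under 0.05, at least 1.5-fold either way, and 65 or more in intensity units in 1 sample) were met by 0 of the 18 and by 2.25% of all probes. Genotypes without overlap were found for 1.35% of all probes. Of the 15 probes well above background on all 9 arrays, 6 had a positive and 9 a negative log2 fold change (hNAG-1 over WT), with a median of -0.03 against -0.02 over all probes. This split followed the scaling, with 12 positive and 3 negative under median scaling, 10 and 5 under quantile normalization, and 4 and 11 without scaling, so it gives the set no direction.

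**Figure D1:**
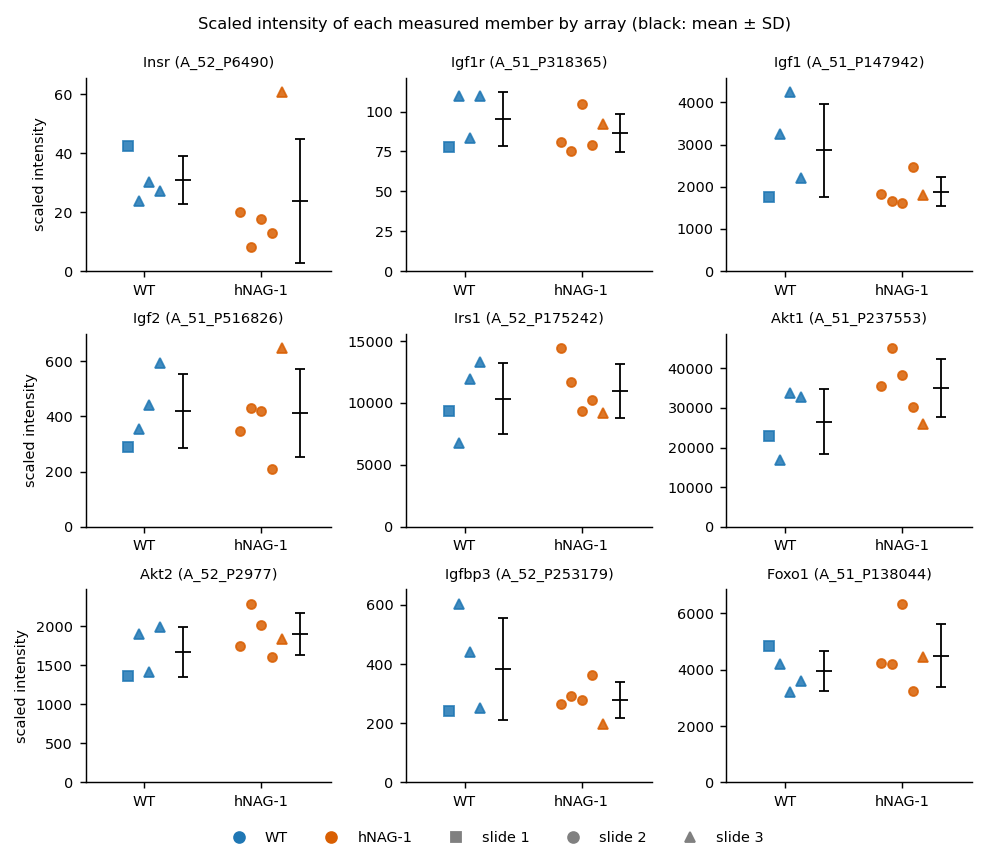
Scaled intensity (vertical axes, from 0) of the brightest probe of each of the 9 measured genes, by genotype. Each point is 1 mouse, its shape gives the slide, and the black mark with its bar is the mean ± SD of the genotype (n = 4 and 5). The genotypes overlap in every panel. For Insr, hNAG-1 5 lies above all other mice, and the 4 hNAG-1 mice of slide 2 were not well above background.

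The precision differed from gene to gene. Among the 15 probes well above background on all 9 arrays, standard errors of the log2 fold change lay between 0.15 for an Igfbp3 probe and 0.35 for an Akt1 probe. Without regard to slide, the 95% interval lay within a 2-fold change either way for 11 of the 15, and within a 1.5-fold change for 4. A 2-fold fall lay within the interval of 3 probes, from Igf1 and Igfbp3, and a 2-fold rise within that of 1 probe, the brightest of Akt1. With slide as a block, standard errors were 0.28 to 0.54, and the interval lay within a 2-fold change for 4 of the 15 probes and within a 1.5-fold change for 0. These 4 were the brightest probes of Igf1r and Akt2 and the second probes of Igfbp3 (A_51_P228472) and Foxo1 (A_52_P453884). A change below 2-fold is bounded under both fits for those probes only. The interval of the brightest Igfbp3 probe held a 2-fold fall under both fits. With slide as a block the value compares hNAG-1 5 alone with WT 2 to 4, so that this bound rests on 1 hNAG-1 mouse.

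**Figure D2:**
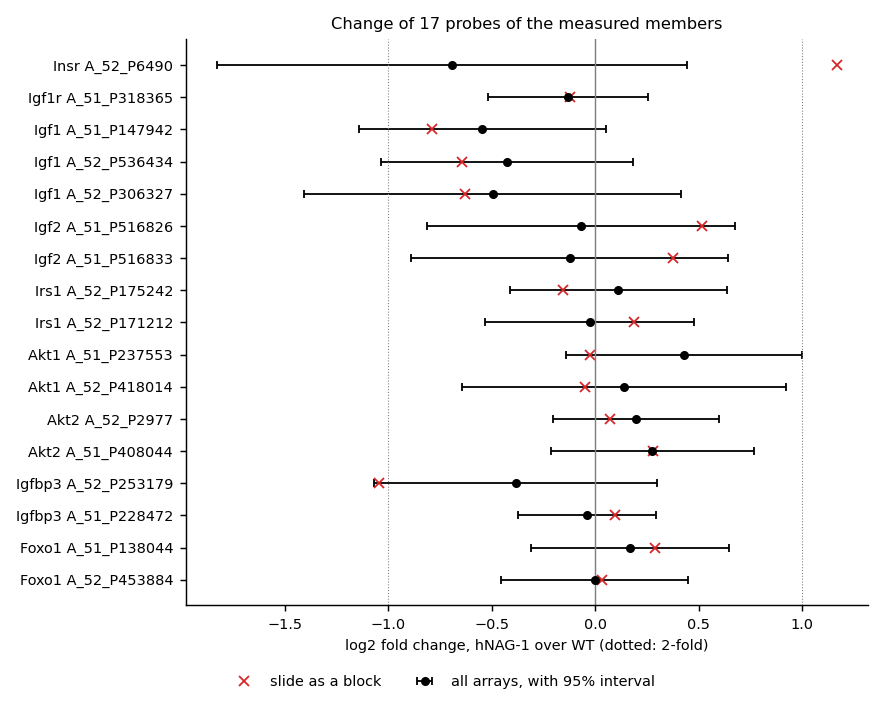
Log2 fold change of hNAG-1 over WT (horizontal axis) for 17 of the 18 probes of the 9 measured genes, with 95% intervals from limma (black) and the value with slide as a block (red crosses), which is the value on slide 3. All 17 intervals include 0. The cross lies outside the interval for Insr alone, at 1.17. Insr was well above background on 3 arrays only, and the second Igf1r probe, too dim for a fold, is left out.

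Igf1 encodes IGF-1, the ligand that the gland makes in its stroma and receives from the liver. Its brightest probe (A_51_P147942) had scaled intensities of 1768, 3245, 4243 and 2213 in WT 1 to 4 and of 1837, 1653, 1621, 2469 and 1809 in hNAG-1 1 to 5. Levels were high in WT 2 and WT 3 and lay between 1621 and 2469 in the other 7 mice, and 2 of 5 hNAG-1 mice lay below all WT mice. The WT mean was 2867 ± 1106 (SD, n = 4) and the hNAG-1 mean 1878 ± 343 (SD, n = 5). The level was 1.46-fold lower in hNAG-1, or -0.55 as log2 fold change (SE 0.26, 95% interval -1.14 to 0.05, adjusted p = 0.661 in limma; exact permutation test, two-sided p = 0.111). The 95% interval included 0, and the SD on the log2 scale was 0.56 between WT mice and 0.24 between hNAG-1 mice. A coding probe, the one shown above, had 1078, 2198, 2588 and 1425 in WT and 1085, 1220, 1176, 1716 and 1286 in hNAG-1. It ranked WT 2 and WT 3 highest again, with a log2 fold change of -0.43 (SE 0.27). Set around their own means, both probes differed by a root mean square of only 0.11 on the log2 scale over the 9 arrays, against an SD of 0.48 and 0.46 between mice. The remaining Igf1 probe (A_52_P306327) was dim, at 14.5 to 66.9, and had a log2 fold change of -0.50 (SE 0.40). The WT 1 mouse, which was low for Igf1, also had the lowest adipocyte and fibroblast markers, with list means of -1.03 and -0.60 on the log2 scale around all arrays. The macrophage list mean was also lowest in WT 1 (-1.01), and it was highest in hNAG-1 4 (0.90), the hNAG-1 mouse with the most Igf1. Other mice went the other way. The highest fibroblast list mean (0.37) was that of hNAG-1 3, which had the least Igf1 by the brightest probe. The highest adipocyte list mean (0.40) was that of WT 4, with Igf1 at 2213. Without WT 1, the log2 fold changes were -0.75 and -0.65 by the brightest and the coding probe, and both had an unadjusted p under 0.05 in limma (adjusted p = 0.659 for both). Without WT 3, the mouse with the most Igf1, the same probes gave -0.33 and -0.23, and with median scaling -0.33 and -0.21. Without hNAG-1 4 they gave -0.65 and -0.53, the brightest with an unadjusted p under 0.05 in limma (adjusted p = 0.828). On slide 3, hNAG-1 5 lay below the WT mean by both probes, with log2 fold changes of -0.79 and -0.64.

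Igf2 encodes IGF-2, a ligand best known from fetal growth. Its brightest probe (A_51_P516826) had 287, 353, 441 and 594 in WT and 346, 430, 421, 210 and 648 in hNAG-1. The lowest and the highest value were both from hNAG-1 mice, hNAG-1 4 and hNAG-1 5. This gave a log2 fold change of -0.07 (SE 0.33, adjusted p = 0.956 in limma), and a second Igf2 probe (A_51_P516833) gave -0.12 (SE 0.34). Both probes ranked hNAG-1 4 lowest, and they differed by a root mean square of 0.11 on the log2 scale around their own means. The direction was not stable. It was higher in hNAG-1 under median scaling (0.15), without WT 4 (0.12) and without hNAG-1 4 (0.15). On slide 3 the brightest probe gave 0.52, which rests largely on 1 outlier feature of hNAG-1 5 described next, and 0.11 by the median of its features. The second probe gave 0.38 there (SE 0.51).

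The brightest probes of Igf1, Igf2 and Akt1 were each printed 10 times on every array, which shows how much of the spread lies within an array. The median coefficient of variation over the 10 features was 4.50% for Igf1, 5.12% for Igf2 and 3.48% for Akt1. On the log2 scale, the SD within an array was 0.07 for Igf1, while the SD between WT mice was 0.56 and that between hNAG-1 mice 0.24. The differences between mice were thus several times wider than those between printed copies. There was 1 exception. On hNAG-1 5, 1 of the 10 Igf2 features read 2164, and the other 9 lay between 413 and 540. The scanner software marked that feature as an outlier. It raised the mean of this mouse to 648, where the median of its features was 480. With the median in place of the mean, or with marked features left out, the log2 fold change of Igf2 was -0.14 or -0.15, and hNAG-1 5 no longer lay above WT 4.

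**Figure D3:**
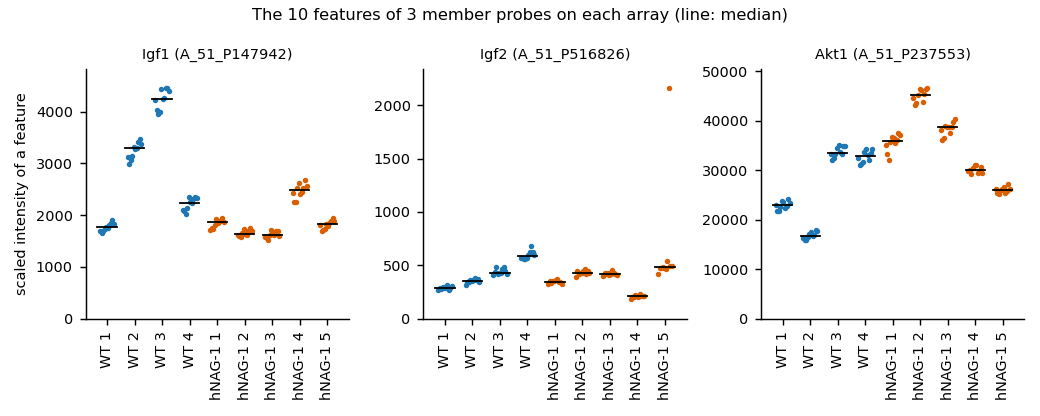
Scaled intensity (vertical axes, from 0) of the 10 features of the brightest Igf1, Igf2 and Akt1 probes on each of the 9 arrays, WT in blue and hNAG-1 in orange. Each point is 1 feature and the line is the median of the array. Features of 1 array lie close together compared with the distance between arrays, apart from a single Igf2 feature at 2164 on hNAG-1 5.

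Igfbp3 encodes the main IGF carrier of the blood. Its brightest probe (A_52_P253179) had 243, 605, 440 and 251 in WT and 264, 292, 278, 364 and 197 in hNAG-1. WT 2 and WT 3 were high, as they were for Igf1, and the other 7 mice lay between 197 and 364. The log2 fold change was -0.38 (SE 0.30, adjusted p = 0.664 in limma; exact permutation test, two-sided p = 0.278). It was -0.13 without WT 2 and -1.04 on slide 3. The probe that crosses an intron of Igfbp3, shown above, did not follow this pattern. It had 69.8, 71.4, 63.7 and 63.1 in WT and 74.7, 65.4, 51.6, 66.3 and 70.5 in hNAG-1, and its log2 fold change was -0.04 (SE 0.15). Around their own means, the Igfbp3 probes differed by a root mean square of 0.48 on the log2 scale, so the level of this gene remains uncertain.

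Insr encodes the insulin receptor, and the array has 1 probe for it. The scaled intensities were 42.3, 23.8, 30.2 and 27.3 in WT and 19.99, 8.15, 17.8, 12.9 and 60.7 in hNAG-1. The probe was well above background in WT 1, WT 2 and hNAG-1 5 only, and hNAG-1 5 had the highest value. The other 6 values, those of the 4 hNAG-1 mice of slide 2 among them, were not well above background and have no firm order. The fitted log2 fold change of -0.69 (SE 0.50; exact permutation test, two-sided p = 0.262) rests on these dim values. It was -1.12 without hNAG-1 5, 1.17 with slide as a block, where hNAG-1 5 stands against WT 2 to 4, and 0.08 with normexp background correction. No size or direction can be given for Insr, and genotype and slide cannot be told apart for the 4 hNAG-1 mice of slide 2.

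Igf1r encodes the IGF-1 receptor, which binds both IGFs. Its brighter probe (A_51_P318365) had 78.0, 110, 83.2 and 110 in WT and 81.2, 75.5, 105, 79.1 and 92.1 in hNAG-1. The ranges nearly coincided. The log2 fold change was -0.13 (SE 0.17, 95% interval -0.52 to 0.26, adjusted p = 0.802 in limma), and it was 0.07 with quantile normalization and 0.09 under median scaling. The second Igf1r probe (A_52_P668647), at 10.02 to 28.9, exceeded background clearly on 1 of the 4 WT and 0 of the 5 hNAG-1 arrays, and gives no fold.

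Irs1 encodes a docking protein that both receptors phosphorylate. Its brightest probe (A_52_P175242) had 9384, 6756, 11975 and 13272 in WT and 14449, 11733, 9358, 10229 and 9195 in hNAG-1. WT 2 was lowest and hNAG-1 1 highest. The genotypes differed by a log2 fold change of 0.11 (SE 0.23, adjusted p = 0.878 in limma). The second Irs1 probe (A_52_P171212) had 247, 173, 239 and 266 in WT and 331, 200, 181, 185 and 253 in hNAG-1, with a log2 fold change of -0.03 (SE 0.22). The brightest probe gave -0.03 without scaling, -0.16 on slide 3 and -0.08 without WT 2, so no direction can be given for Irs1.

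Akt1 encodes the Akt kinase that is expressed most widely. Its brightest probe (A_51_P237553) had 22926, 16787, 33738 and 32701 in WT and 35584, 45138, 38367, 30109 and 25995 in hNAG-1. WT 1 and WT 2 were lowest, and 3 of 5 hNAG-1 mice lay above all WT mice. The WT mean was 26538 ± 8123 (SD, n = 4) and the hNAG-1 mean 35039 ± 7407 (SD, n = 5). The level was 1.35-fold higher in hNAG-1, or 0.43 as log2 fold change (SE 0.25, 95% interval -0.14 to 1.00, adjusted p = 0.661 in limma; exact permutation test, two-sided p = 0.143). The 3 mice above all WT mice were on slide 2, and hNAG-1 5 lay within the spread of the 3 WT mice on slide 3, above WT 2 and below WT 3 and WT 4, with a log2 fold change of -0.03 there (SE 0.44 with slide as a block). The value was 0.23 once WT 2, the lowest mouse, was left out, and 0.65 with median scaling and 0.28 without scaling. The Akt1 probe with the start codon had 465, 168, 295 and 301 in WT and 576, 344, 294, 233 and 237 in hNAG-1. It put WT 1 and hNAG-1 1 highest and WT 2 lowest, with a log2 fold change of 0.14 (SE 0.35). The Akt1 probes differed by a root mean square of 0.48 on the log2 scale around their own means, where the SD between mice was 0.43 and 0.53.

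Akt2 encodes the Akt kinase that carries most of the insulin effect on glucose uptake in fat and muscle. Its brightest probe (A_52_P2977) had 1361, 1901, 1418 and 1988 in WT and 1750, 2288, 2019, 1604 and 1837 in hNAG-1. WT 1 and WT 3 were lowest and hNAG-1 2 highest. hNAG-1 exceeded WT by a log2 fold change of 0.20 (SE 0.18, 95% interval -0.20 to 0.60, adjusted p = 0.702 in limma). The probe split over an intron had 358, 557, 429 and 546 in WT and 414, 777, 540, 526 and 616 in hNAG-1, with a log2 fold change of 0.28 (SE 0.22). It put WT 1 lowest and hNAG-1 2 highest too. Both Akt2 probes were higher in hNAG-1 under all 24 alternatives computed for single probes, with a lowest unadjusted p of 0.0809 in limma. A constant sign was not particular to Akt2. The brightest Foxo1 probe was also higher under all 24, and every Igf1 probe and the brightest Igfbp3 probe under 0 of 24. The alternatives reuse the same mice, so these counts are not separate tests. The size of the Akt2 difference was less stable. For the brightest Akt2 probe it was 0.05 without scaling, 0.07 with slide as a block, 0.41 with median scaling and 0.11 to 0.29 with single mice left out, lowest without WT 1.

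Foxo1 encodes a transcription factor that Akt holds in the cytoplasm. Its brightest probe (A_51_P138044), at chr3:52472787-52472846 (plus strand), had 4823, 4195, 3196 and 3606 in WT and 4247, 4184, 6342, 3257 and 4458 in hNAG-1. Only hNAG-1 3 lay outside the WT range. This is a log2 fold change of 0.17 (SE 0.21, adjusted p = 0.793 in limma), and a second Foxo1 probe (A_52_P453884) gave -0.00 (SE 0.20). Without hNAG-1 3 the brightest probe gave 0.04. Among the hNAG-1 mice, both put hNAG-1 3 highest and hNAG-1 4 lowest.

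**Figure D4:**
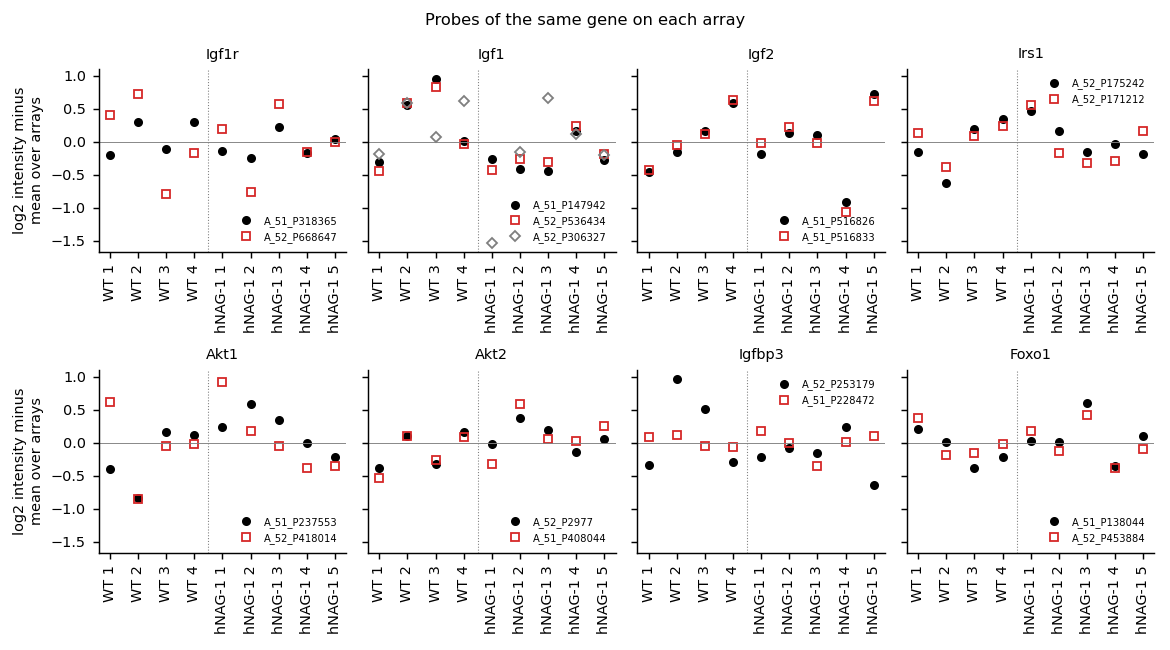
Log2 scaled intensity minus the mean over the 9 arrays (vertical axis) for each probe of the 8 genes with 2 or 3 probes, by array. The dotted line parts WT from hNAG-1. Points of 1 gene fall together for the bright Igf1 probes and for Igf2, Akt2 and Foxo1, and apart for Akt1, Igfbp3 and the dim probes of Igf1 and Igf1r.

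Among member probes well above background on all 9 arrays, the Akt1 probe with the start codon varied most between mice, with an SD of 0.53 on the log2 scale. Of 23089 probes of the same kind, those whose profile over the 9 arrays lay closest to it were AK034660, D930050A07Rik, Hspa9a, Dll1 and Adcy9, with root mean square differences of 0.16, 0.18, 0.20, 0.20 and 0.21. The brightest Akt1 probe, at 0.48, was farther away than these.

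The rest of the pathway was described by 7 lists of 91 genes, the members included, of which 89 had a probe (8 of them matched by accession). By the brightest probe of each gene, 45 were higher and 44 lower in hNAG-1, with a median log2 fold change of 0.00. Under median scaling 71 were higher and 18 lower, and on unscaled values 29 and 60. The slide block gave 59 higher and 30 lower. An unadjusted p under 0.05 in limma was found for 3 genes, or 3.37%, below the 5.6% of all probes, and 0 passed after adjustment over all probes (lowest adjusted p = 0.661 in limma). Genotypes did not overlap for 1 gene, which is 1 of 89, where 1.35% of all probes had none.

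That gene was Akt1s1, which encodes PRAS40, an mTOR inhibitor that Akt phosphorylates. Its probe (A_51_P478326; chr7:41029304-41029363) had 1693, 1521, 1774 and 1935 in WT and 2065, 2511, 2147, 2185 and 2234 in hNAG-1, so that all 5 hNAG-1 mice lay above all WT mice. The log2 fold change was 0.37 (SE 0.13, adjusted p = 0.661 in limma; exact permutation test, two-sided p = 0.00794, the smallest that 4 against 5 mice allow). It was 0.36 with slide as a block. As 1 gene among 89, with a share near that of all probes, it is given as a value only. The other 2 genes were Pdk4, which inhibits pyruvate oxidation, and Pck1, a gluconeogenic enzyme. Both are activated by FoxO factors, and they had log2 fold changes of -1.11 and -1.01. With slide as a block these were 0.26 and -0.32.

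By role, 6 of 17 ligands, carriers and their regulators were higher and 11 lower in hNAG-1 (median -0.15, and 0.17 with slide as a block). Under median scaling 12 of the 17 were higher, and 0 had an unadjusted p under 0.05 in limma. The largest fall was that of Igfbp5, a binding protein that rises when milk stasis sets in, with a log2 fold change of -0.94 (SE 0.49). Its level was 2475, 1875, 4290 and 10598 in WT and 1717, 2486, 3331, 1355 and 1612 in hNAG-1, so that WT 4 stood above all other mice. Igfbp1 had the highest fitted value, but was well above background on only 1 array of each genotype, so that its place is uncertain. Of 12 receptors and adaptor proteins 5 were higher (median -0.04, and 0.06 with slide as a block), and 10 under median scaling. Insr had the lowest fitted value and Irs3 the highest (0.38, SE 0.39), but Irs3 was well above background on 3 of the 4 WT and 2 of the 5 hNAG-1 arrays and Insr on fewer, so that this order is uncertain. Of 12 genes of PI3-kinase and Akt 8 were higher (median 0.06), and 4 without scaling. They ranged from -1.02 for Pik3cd, the catalytic subunit of white blood cells, to 0.52 for Pik3r1, the main regulatory subunit. Pik3cd had 3680 in WT 2, the mouse with the highest lymphocyte markers, and 249 to 927 in the other 8.

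Of 11 inhibitors of the pathway 4 were higher (median -0.10), and 7 under median scaling. Socs3, which blocks cytokine and insulin receptor signals, had the largest fall, with a log2 fold change of -1.18 (SE 0.53, adjusted p = 0.661 in limma). It had 6826, 4201, 1819 and 1625 in WT and 1059, 900, 1309, 3566 and 978 in hNAG-1, so that 4 of 5 hNAG-1 mice lay below all WT mice and hNAG-1 4 lay among them. The 3 mice with the most Socs3 (WT 1, WT 2 and hNAG-1 4) were also the 3 with positive lymphocyte list means, at 0.89, 3.07 and 0.72 on the log2 scale around all arrays. Grb10, an adaptor that inhibits both receptors, had the largest rise (0.17, SE 0.16). Of 12 genes of the mTOR branch 10 were higher (median 0.20, and 0.15 with slide as a block). Without scaling 8 were higher (median 0.06), and under median scaling 12 (median 0.42). They ranged from -0.12 for Rictor to 0.38 for Rptor, the subunits that define the second and the first mTOR complex. The list also holds Akt1s1, an inhibitor of mTOR, so a count of higher genes gives no direction of signalling. Of the 12 genes, only Akt1s1 had an unadjusted p under 0.05 in limma.

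Of 15 FoxO factors and genes that they activate 4 were higher (median -0.14), and 11 under median scaling, with Klf15 the largest rise (0.28, SE 0.25). Of 10 genes that insulin is known to raise 8 were higher (median 0.43), from -0.50 for Egr1 to 0.69 for Slc2a4, the glucose transporter that insulin moves to the cell surface, and 0 had an unadjusted p under 0.05 in limma. These medians also changed sign with slide as a block, to 0.29 and -0.05. In WT 2 the genes raised by insulin had a mean of -0.73 on the log2 scale around all arrays. The list means of the lymphocyte, myoepithelial and secretory luminal markers in that mouse were 3.07, -0.78 and -0.50, the highest of all mice for the first list and the lowest for the others. For the genes raised by insulin, the mean was -0.31 in WT 1, 0.12 in WT 3 and 0.21 in WT 4. It was -0.26 in hNAG-1 5 against 0.04 to 0.46 in the 4 hNAG-1 mice of slide 2, so that the genotypes overlapped. WT 1, next lowest after WT 2, had the highest secretory luminal list mean (0.31), and hNAG-1 5 had -0.03. The adipocyte list mean was -1.03 in WT 1 and -0.31 in WT 2, the lowest of all mice, and 0.24 in hNAG-1 5.

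**Figure D5:**
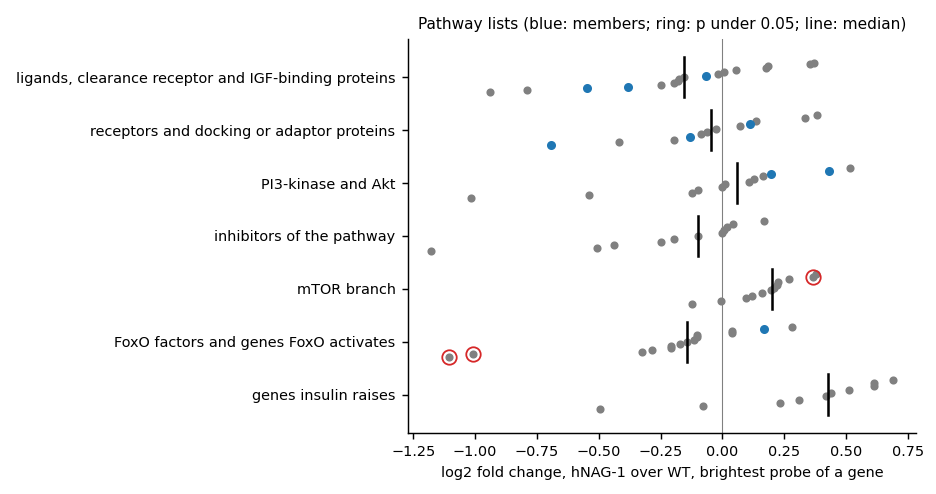
Log2 fold change of hNAG-1 over WT (horizontal axis) for the brightest probe of each gene in the 7 pathway lists. Blue points are members, red rings mark an unadjusted p under 0.05 (3 genes: Akt1s1, Pck1 and Pdk4) and black lines are list medians. The medians lie between -0.15 and 0.43.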

How the data were processed

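The authors deposited the Feature Extraction (version 9.5) output of 9 1-color Agilent whole mouse genome arrays, with an intensity per feature after background subtraction and no scaling between arrays. Its 75th percentile lay between 533 and 1185 on single arrays. The deposited series table held the same intensity values (largest difference 0) and served as an alternative. The paper's methods name an ANOVA, and its text names no normalization.

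Computed here: control features were left out, the 43379 other features were scaled so that the 75th percentile was the same on all arrays, the features of a probe were averaged and log2 was taken. Outlier features were kept, and leaving them out was an alternative. Genotypes were compared over 41174 probes with limma (version 3.58.1, R version 4.3.3) in a two-sided test with genotype as the only term (lmFit, eBayes), with Benjamini-Hochberg adjustment across every probe. Permutation was exact, over 126 splits of the mice. The slide was taken from the array identifiers. Labels do not say that mice came from separate litters, and 9 arrays limit the precision. The scripts were tested on simulated data.

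Samples were grouped by their labels. The members and lists were chosen with earlier results of these data known. Genes named are all members with every probe, list genes with an unadjusted p under 0.05 or without overlap, the largest rise and fall of each list, and the 5 profiles closest to the most variable member probe. Lists used the brightest probe of a gene. Names are those of the array's design, or of a RefSeq table (GRCm38.p6) through accessions, and Irs2 and Phlpp1 were not matched. Alternatives were quantile normalization, scaling to the median or none, normexp (offset 50), removal of outlier features, a floor of 20, a filter on dim probes, trend and robust estimation in eBayes, the methods' test, the slide as a block (fixed, random, or slide 3 alone), the series table, a replicate block, each mouse left out in turn and, chosen after seeing the data, the median over the features of a probe.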

Additional observations from a re-analysis of the deposited data

Results flagged for a closer look

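Within a genotype, 9 of 66 groups of values had 1 mouse far from the others by the ratio of its gap to the nearest mouse to the range of the group, both taken on the log2 scale. All 9 were among 30 groups of list genes, and 0 among 36 groups of member probes. Chance flags about 1 in 20 groups, but the list genes were named partly for large changes, which single mice far from the rest help to make, so this rate cannot be set against their count. For Igfbp1 the ratio was 0.867 in WT, where WT 1 had 27.2 and the nearest mouse 4.68. In hNAG-1 it was 0.811, where hNAG-1 2 had 48.8 and the nearest mouse 6.87. The Igfbp1 probe was well above background on only 1 array of each genotype, so these ratios rest on dim values. For Klf15 the ratio was 0.882 in WT, with WT 2 low at 4294 against 8826, and 0.81 in hNAG-1, with hNAG-1 3 low at 7435 against 9488. For Pik3cd it was 0.84 in WT, with WT 2 at 3680 against 600, and 0.719 in hNAG-1, with hNAG-1 4 at 927 against 361. In hNAG-1, hNAG-1 4 also stood apart for Socs3 (0.728), at 3566 against 1309, and was low for Pik3r1 (0.792), at 3696 against 5203. For Pdk4 the ratio was 0.726, with hNAG-1 5 at 3298 against 1293. The causes were not tested.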

How the results depend on the processing

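Of 143 values of the 9 measured genes under 16 alternatives, 126 kept direction and side of the threshold, 14 changed sign and 3 newly had an unadjusted p under 0.05 in the same direction. With sign changes counted too, 5 values had an unadjusted p under 0.05 (2 of Igf1, 3 of Insr). Leaving out single mice changed the sign of 3 of 81 values. The count of member probes with an unadjusted p under 0.05 in limma rose from 0 to 1 with normexp (Igf1), trend and robust estimation (Igf1), slide as a fixed block (Insr), slide 3 alone (Insr) and the replicate block (Insr), and was 0 to 2 when a mouse was left out. After adjustment it was 0 under all alternatives. Insr changed sign with normexp (0.0787) and with slide as a fixed block or slide 3 alone (1.17 in both), Igf1r with quantile normalization (0.0716) and median scaling (0.0859), Igf2 with median scaling (0.15), slide as a fixed block or slide 3 alone (0.52 in both, and 0.11 on slide 3 by the median of its features, chosen after seeing the data), slide as a random block (0.0033) and single mice left out (-0.25 to 0.15), Irs1 without scaling (-0.0341), with slide as a fixed block or slide 3 alone (-0.16 in both) and with single mice left out (-0.0768 to 0.25), and Akt1 with slide as a fixed block or slide 3 alone (-0.0254 in both). The median over all probes was -0.02, against 0.20 with median scaling and -0.16 without scaling, so values under these scalings shift by as much. Pathway genes with an unadjusted p under 0.05 in limma numbered 3, and 7 with normexp, 5 with quantile normalization, 8 with median scaling, 5 with trend and robust estimation and 2 to 7 without single mice. All probes numbered 2307, and 1058 with normexp, 3686 with median scaling, 1475 with slide as a random block, 3723 on slide 3 alone and 1163 to 5924 without single mice, the extremes being without hNAG-1 2 and without hNAG-1 5. Without hNAG-1 5 the count of pathway genes was 7. The causes were not tested. The replicate numbers did not pair the mice (correlations of deviations 0.33, -0.23, -0.16 and -0.35, 1 of 4 mice closest to its own number). With the replicate block, which leaves out hNAG-1 5, the counts were 1 member probe (Insr, -1.12), 5 pathway genes and 5447 probes. Low signal limits Insr and the second Igf1r probe.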
